A study of Mus musculus with 8 samples.

Results

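The RANK to NF-κB signalling components are 37 genes that carry the signal from the receptor RANK to the NF-κB transcription factors, together with brakes on that signal and genes it switches on. They were listed by name as known components of the pathway, with no threshold on a measured value and with earlier results of these data known, and all 37 were found among the 54532 genes of the count table. They comprised the receptor Tnfrsf11a, 5 TRAF adaptors, 12 components of the canonical arm, 3 IKK-related kinases, 5 components of the non-canonical arm and 11 feedback regulators or target genes.

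Epithelial cells were isolated from the intestine of female mice at lactation day 5, from 4 WT and 4 Rank-knockout animals, and each animal gave 1 library. In the Rank-knockout mice a floxed Rank (Tnfrsf11a) was deleted by Cre driven from the Villin1 promoter, which is active in the intestinal epithelium, so that other cells of these animals kept the gene. Per the study's methods the animals were littermates on a C57BL/6J background and had been mated to wild-type C57BL/6J males. The study's reporting summary gives only a general age range for its mice, and neither the age of these animals nor whether the WT animals carried Cre was given in the sources used here. The comparison addresses how loss of RANK in the epithelium changes the expression of its own signalling machinery during lactation.

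RANK is a receptor of the TNF receptor family that has no enzymatic activity and signals by recruiting TRAF proteins. In the canonical arm, TRAF6 activates the kinase TAK1 (Map3k7), which switches on the IKK complex, and IKK removes IκB proteins so that RELA, c-Rel and p50 dimers enter the nucleus. In the non-canonical arm, TRAF2, TRAF3 and the cIAP proteins hold the kinase NIK (Map3k14) at a low level until a receptor is engaged, after which NIK and IKKα (Chuk) process p100 (Nfkb2) into p52, the partner of RelB. Much of this control acts on protein stability and phosphorylation, which RNA counts do not measure. NF-κB also induces several of its own components and inhibitors through κB sites in their promoters, and in the gut the pathway is best known for M cell development and for lymphoid tissue.

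Because several members are themselves controlled through such sites, the promoter windows of the members were searched for the κB consensus, on both strands. The windows were RefSeq sequences on GRCm38.p6 from 250 bases before to 50 bases after an annotated start, and 30 of the 37 members had at least 1 window. Ikbkb, Malt1, Relb, Nfkb1, Tab1, Nfkbiz and Cxcl16 had none. The consensus was present in a window of 12 of the 30 genes (40.0%), against 2581 of 27025 genes with a window (9.55%), and among the feedback regulators and targets it was present in 6 of 9. The members were picked for their place in this pathway, so the higher share describes the choice of genes. The sequences run 5′ to 3′ on the strand of the gene, with the match in capitals. They are shown because they are the feedback genes and NF-κB subunits whose levels are described further on.
Nfkbia, chr12:55492657-55492686, minus strand, match beginning at base -29 from the start: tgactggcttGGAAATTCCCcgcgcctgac
Tnfaip3, chr10:19015516-19015545, minus strand, match beginning at base -125: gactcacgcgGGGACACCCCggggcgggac
Tnfaip3, chr10:19015403-19015432, minus strand, match beginning at base -12: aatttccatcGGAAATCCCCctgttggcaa
Nfkbie, chr17:45555584-45555613, plus strand, match beginning at base -106: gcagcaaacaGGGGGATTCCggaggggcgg
Cyld, chr8:88696863-88696892, plus strand, match beginning at base -155: ttgaccgagcGGAAAGTCCCttcagccagc
Bcl3, chr7:19822734-19822763, minus strand, match beginning at base 2: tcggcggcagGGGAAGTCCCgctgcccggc
Ccl20, chr1:83116676-83116705, plus strand, match beginning at base -80: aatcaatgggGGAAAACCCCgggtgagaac
Nfkb2, chr19:46304688-46304717, plus strand, match beginning at base -39: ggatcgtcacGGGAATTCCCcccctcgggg
Nfkb2, chr19:46304716-46304745, plus strand, match beginning at base -11: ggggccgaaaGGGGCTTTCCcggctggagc
Rel, chr11:23771042-23771071, minus strand, match beginning at base -92: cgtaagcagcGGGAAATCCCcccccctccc

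Single windows of Tnfaip3 and of Nfkb2 held more than 1 separate match, and the match of Nfkb2 at base -39 reads as a consensus on both strands, as do those of Bcl3 at base 2, of Rel at base -92, of Tnfaip3 at base -125 and of Bcl10 at base -241. Bcl10, Map3k7, Tank and Traf3 held a match too. Of the 12 genes with a match, 9 had enough counts for the genotype test and 0 of these passed it in edgeR, with log2 fold changes from -0.28 to 0.19. Of the 18 genes whose windows held no match, 15 were tested and 1, Tnfrsf11a, the gene targeted by the knockout, passed. These counts are therefore not read as a result about κB matches. Of all tested genes 14.6% were called lower and 15.8% higher, and Relb, Nfkbiz and Cxcl16, the other members that passed, had no window and are in neither count. The absence of a match says only that these letters are not in this window, and a match was not tested for binding.

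**Figure D1:**
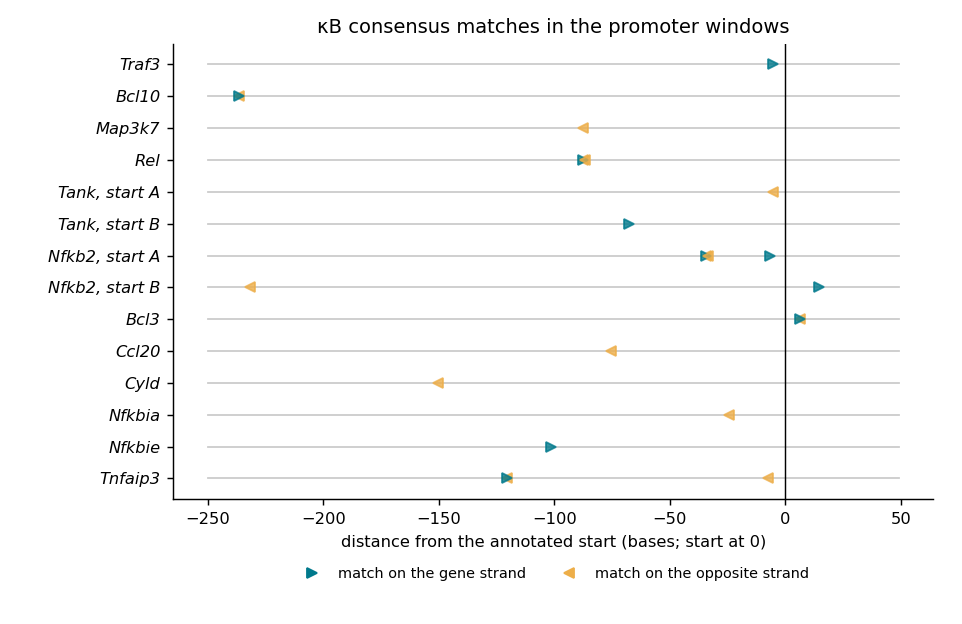
Position of each κB consensus match, in bases from the annotated start (x axis, start at 0), for the 12 genes whose promoter windows held one, 1 line per window with a match. Triangles give the strand of the match, overlapping triangles are matches that read on both strands, and Tank and Nfkb2 each have 2 annotated starts with a match, A at the lower coordinate and B at the higher. All matches but those of Bcl3 and of the second start of Nfkb2 that lie at bases 2 and 10 begin before the start.

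Total counts ran from 1530781 to 4335653 in the 4 WT libraries and from 2103716 to 4321154 in the 4 Rank-knockout libraries, and 3 of the WT libraries were shallower than every Rank-knockout library. Levels are given as CPM, counts scaled to a common library size, after TMM scaling, and a level of 3 counts, the most that a count of 0 allows, was between 0.637 and 2.06 CPM, depending on the library. Reads come from the 3′ end, about 1 per transcript whatever its length, so CPM levels of different genes were set side by side without division by length. All 6 epithelial markers were measured in every library, with summed levels of 9407 to 10331 CPM in WT and 7244 to 8881 CPM in Rank-knockout; Epcam, Vil1 and Krt20 were lower, Krt18 was higher, and Cdh1 and Krt8 did not pass. Of 10 villus enterocyte markers 10 were lower in Rank-knockout, with summed levels of 20117 to 29024 CPM in WT and 9805 to 13217 CPM in Rank-knockout, and of 10 crypt replication and cell cycle markers 10 were higher, with summed levels of 361 to 591 CPM and 819 to 1415 CPM. Under library totals Epcam (adjusted p = 0.16) and, of the villus markers, Sis and Anpep no longer passed. In bulk libraries fewer cells of a type and less RNA per cell cannot be told apart, and the part of this shift in the differences below was not tested.

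Of the 37 members, 31 had enough counts to be tested. In Rank-knockout 4 were lower (Tnfrsf11a, Relb, Nfkbiz and Cxcl16) and 0 were higher at an edgeR adjusted p under 0.05, where 14.6% of all 9855 tested genes were called lower and 15.8% higher. The 4 lower members are 12.9% of those tested, close to the share among all genes. Of these 4, Tnfrsf11a is the gene that the knockout targets, so its call is not read as a response of the pathway. At an unadjusted p under 0.05 there were 5 members, all lower, and 0 higher, and DESeq2 and limma-voom also called 0 higher. The median log2 fold change of the 31 members was -0.16, with 24 of them below 0, against a median of 0.02 for all tested genes. WT and Rank-knockout libraries were fully apart in 3 members, all lower in Rank-knockout, and in 0 members that were higher, where 14.3% of all tested genes were lower and 14.4% higher without overlap.

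The direction of small differences depended on the scaling. With library totals in place of TMM the median of all genes moved from 0.02 to 0.22, and that of the members moved with it, from -0.16 to 0.04. On that scale 2 members, Relb and Cxcl16, were lower and 0 were higher, where 8.72% of all genes were lower and 26.0% higher. A library size computed without the 50 most abundant genes brought the median of all genes to 0.15 and likewise left Relb and Cxcl16 as the members called. With that library size 10.3% of all genes were lower and 22.0% higher.

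Tnfrsf11a encodes RANK itself. Its level was 77.4, 49.7, 41.7 and 73.9 CPM in the 4 WT libraries and 27.2, 42.0, 35.5 and 47.2 CPM in the Rank-knockout libraries. WT replicates 1, 2 and 4 lay above every Rank-knockout library, while WT replicate 3 lay below 2 of them, so the genotypes overlapped. In edgeR its log2 fold change was -0.67 with an SE of 0.22 (adjusted p = 0.032). The call was lost with library totals (log2 fold change -0.48, adjusted p = 0.11), without the 50 most abundant genes in the library size (adjusted p = 0.076), with libraries thinned to the shallowest total (adjusted p = 0.12), and without either of WT replicates 1 and 4 or Rank-knockout replicates 1 and 3, with log2 fold changes of -0.55, -0.58, -0.52 and -0.64. Because the tags mark the 3′ end and the floxed region was not located here, this level checks nothing about the labels. The paper reports, with RANK staining among its evidence, that mice of this knockout had lost RANK expression in the intestine.

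The ligand and the decoy receptor of RANK were near or at the floor of detection. Tnfsf11, which encodes RANKL, had 0 counts in all 8 libraries, so its level was not detectable at this depth. Tnfrsf11b, which encodes the soluble decoy receptor osteoprotegerin, had 3 counts, all in WT. Neither gene could be tested.

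The TRAF adaptors dock on the receptor tail and pass the signal to both arms. Traf3, a brake on NIK, was the most abundant, with 27.9 to 36.3 CPM in the WT and 25.5 to 38.0 CPM in the Rank-knockout libraries, with a log2 fold change of 0.09 (SE 0.19, adjusted p = 0.75). Traf2, which brings the cIAP proteins to TRAF3, lay between 18.8 and 30.6 CPM in the 8 libraries and had a log2 fold change of -0.04. Traf6, the adaptor that couples RANK to the canonical arm, lay between 5.46 and 9.98 CPM, with a log2 fold change of 0.02 and a 95% interval from -0.59 to 0.63. The genotypes overlapped in all 3 of these genes, and 0 of the 3 passed the edgeR test. Of all tested genes 14.6% were called lower and 15.8% higher, and 14.3% were lower and 14.4% higher without overlap. Under library totals the log2 fold changes of Traf2, Traf3 and Traf6 were 0.16, 0.29 and 0.22, so the sign of Traf2 turned. Traf1 and Traf5 had 17 and 29 counts in all and were not tested.

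In the canonical arm 12 of 12 genes were tested and 0 passed in either direction, against 14.6% lower and 15.8% higher among all tested genes. The log2 fold changes ran from -0.37 (Tab3) to 0.15 (Ikbkb), with a median of -0.13, and 10 of the 12 were below 0. The genotypes overlapped in each of the 12 genes, where 14.3% of all tested genes were lower and 14.4% higher without overlap. Under library totals the median of the 12 was 0.07.

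Upstream in this arm, Map3k7 encodes TAK1, the kinase that activates IKK. It was measured at 64.4, 57.0, 54.0 and 61.9 CPM in WT and at 67.9, 68.3, 58.5 and 63.5 CPM in Rank-knockout, with a log2 fold change of 0.13 (SE 0.14, adjusted p = 0.54). Its ubiquitin-binding partner Tab2 was among the steadiest members, at 75.4, 75.8, 86.0 and 77.2 CPM in WT against 73.0, 76.9, 72.8 and 76.2 CPM, with a log2 fold change of -0.07 (SE 0.13, adjusted p = 0.73). The 95% interval of the Tab2 difference was -0.36 to 0.21. For Tab1, an activating subunit of TAK1, the levels were 23.3, 27.9, 21.2 and 21.3 CPM in WT and 20.6, 22.9, 24.7 and 20.8 CPM in Rank-knockout, with a log2 fold change of -0.10 (SE 0.19, adjusted p = 0.71). Ripk1, the scaffold kinase used by TNF receptors, had 28.1, 45.6, 48.5 and 44.6 CPM in WT and 32.9, 34.1, 33.7 and 30.1 CPM in Rank-knockout. WT replicate 1 was the lowest of all 8 libraries for Ripk1 and the other 3 WT libraries lay above every Rank-knockout library. Its log2 fold change was -0.36 (SE 0.18, adjusted p = 0.15), and without WT replicate 1 it was -0.53 (adjusted p = 0.037).

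Of the IKK complex, the kinase Ikbkb stood at 43.8, 45.1, 42.3 and 37.9 CPM in WT and at 53.5, 46.9, 43.6 and 44.0 CPM in Rank-knockout, with a log2 fold change of 0.15 (SE 0.16, adjusted p = 0.50). The regulatory subunit Ikbkg (NEMO) ranged from 16.6 to 22.4 CPM over the 8 libraries, with a log2 fold change of -0.02. Bcl10 and Malt1, which link antigen and G protein-coupled receptors to IKK, had log2 fold changes of -0.04 and -0.27 at mean levels of 17.4 and 12.4 CPM, and Tab3, a relative of Tab2, had -0.37 at 9.93 CPM. Their adjusted p values were 0.91, 0.46 and 0.30.

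The canonical transcription factors did not pass the test either. Rela, the main activating subunit, was measured at 87.0, 103, 84.0 and 76.5 CPM in WT and at 90.4, 76.9, 68.3 and 67.7 CPM in Rank-knockout. The fold change of Rela on the log2 scale was -0.21 (SE 0.15, adjusted p = 0.31, 95% interval -0.54 to 0.11). Nfkb1, which encodes p105 and p50, had 28.8, 31.2, 27.3 and 42.6 CPM in WT and 29.7, 34.9, 19.3 and 31.1 CPM in Rank-knockout, with a log2 fold change of -0.16 (SE 0.21, adjusted p = 0.59). Rel, which encodes c-Rel and is mainly a lymphoid gene, was the lowest of the tested members at a mean of 5.88 CPM, with a log2 fold change of -0.23 (SE 0.34, adjusted p = 0.65).

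The IKK-related kinases phosphorylate interferon regulators and feed back on NF-κB. Tbk1 was the member nearest the threshold among those that missed it, and it is given in full here after its values were seen. It had 48.0, 21.5, 51.2 and 34.6 CPM in WT and 23.1, 23.6, 20.7 and 28.5 CPM in Rank-knockout, so that 3 WT libraries lay above all Rank-knockout libraries and WT replicate 2 lay among them. The log2 fold change was -0.65 (SE 0.24, adjusted p = 0.055). It passed with no filter on low counts (adjusted p = 0.031), without WT replicate 2 (log2 fold change -0.89, adjusted p = 0.0027) and without Rank-knockout replicate 4 (adjusted p = 0.043). Its relative Ikbke and the adaptor Tank had log2 fold changes of -0.29 and 0.19, with adjusted p values of 0.32 and 0.66.

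In the non-canonical arm 5 of 5 genes were tested, 1 was lower in Rank-knockout and 0 were higher (14.6% and 15.8% of all tested genes), with a median log2 fold change of -0.28, or -0.08 under library totals. The gene that fell was Relb, the transcription factor at the end of this arm (GRCm38 chromosome 7, 19606217 to 19629438, minus strand, protein-coding). Relb was measured at 120, 99.3, 97.0 and 146 CPM in the WT libraries and at 72.0, 67.2, 64.3 and 65.4 CPM in the Rank-knockout libraries. Every WT library lay above every Rank-knockout library, and the Rank-knockout libraries lay close together, with an SD of 3.39 CPM against 22.7 CPM in WT (n = 4 each). The log2 fold change in edgeR was -0.77 (SE 0.16, adjusted p = 0.0020), a level 0.585 times that of WT with a 95% interval from 0.466 to 0.734. Relb passed under every alternative tried, with log2 fold changes from -0.86 without WT replicate 3 to -0.58 under library totals.

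The other components of this arm did not pass. Nfkb2, the precursor of the p52 that pairs with RelB, was among the lowest of the tested members, with 7.54, 9.88, 5.46 and 12.0 CPM in WT against 5.09, 9.01, 7.64 and 7.91 CPM, with a log2 fold change of -0.28 (SE 0.30, adjusted p = 0.50). Relb tags outnumbered Nfkb2 tags in every library, by 10.1 to 17.8 times in WT and 7.46 to 14.1 times in Rank-knockout, ranges that overlapped. Map3k14, the kinase NIK, had a log2 fold change of -0.06 (SE 0.25, adjusted p = 0.88) with 8.65 to 15.5 CPM in WT against 9.75 to 14.6 CPM. Counts of both genes were low, and the 95% intervals of the log2 fold change reached from -0.92 to 0.35 for Nfkb2 and from -0.59 to 0.47 for Map3k14.

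Chuk encodes IKKα, the kinase that acts on p100. Its WT libraries spread more widely than those of most members, at 43.2, 21.5, 62.8 and 65.2 CPM, and the Rank-knockout libraries were at 34.2, 36.8, 28.8 and 50.1 CPM. The log2 fold change was -0.31 (SE 0.30, adjusted p = 0.47), and without WT replicate 2, the lowest of the 8, it was -0.60 (adjusted p = 0.034). WT replicate 2 was thus the lowest WT library for both Chuk and Tbk1, and it is also the deepest WT library. Birc2, the cIAP1 ubiquitin ligase that keeps NIK low, was measured at 43.2, 36.5, 41.0 and 39.9 CPM in WT and at 41.4, 49.5, 42.3 and 41.4 CPM in Rank-knockout, with a log2 fold change of 0.13 (SE 0.16, adjusted p = 0.58).

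**Figure D2:**
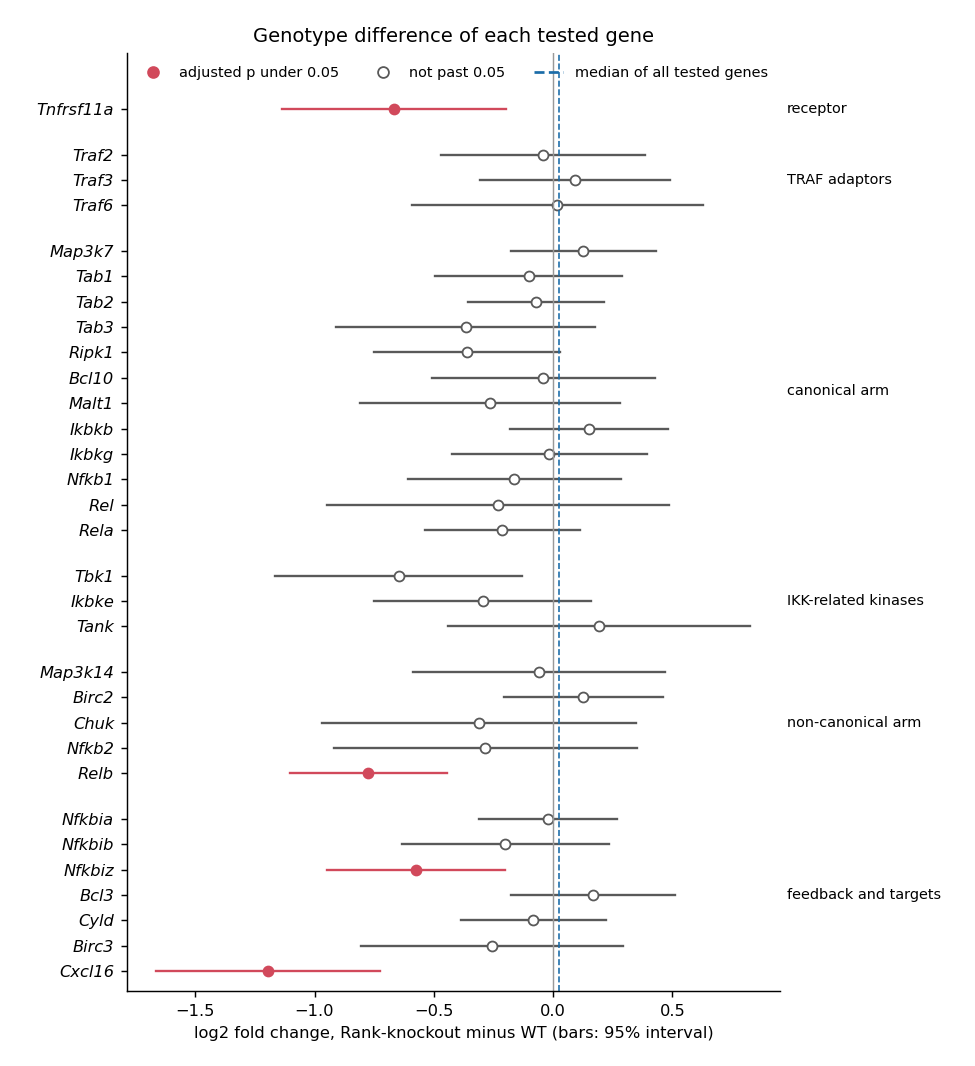
Difference between genotypes for each of the 31 tested members, as log2 fold change of Rank-knockout minus WT on the TMM scale (x axis), grouped by role; bars are 95% intervals for each gene alone, not adjusted over genes, and the dashed line is the median of all 9855 tested genes at 0.02. The 4 filled points, Tnfrsf11a, Relb, Nfkbiz and Cxcl16, passed an adjusted p of 0.05 and lie between -1.19 and -0.58, while the 27 open points did not pass and lie between -0.65 and 0.19.

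Among the feedback regulators and targets 7 of 11 genes were tested, 2 were lower in Rank-knockout and 0 were higher (14.6% and 15.8% of all tested genes), with a median log2 fold change of -0.20, or 0.0014 under library totals. The lower genes were Nfkbiz and Cxcl16, and in both the WT libraries lay above all Rank-knockout libraries.

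Nfkbia encodes IκBα, the inhibitor that NF-κB rapidly resynthesises, and it was the most abundant member by a wide margin. Its level was 469, 411, 531 and 475 CPM in WT and 504, 417, 483 and 452 CPM in Rank-knockout. The Rank-knockout libraries lay inside the WT range, and the log2 fold change was -0.02 (SE 0.14, adjusted p = 0.92). The 95% interval of the Rank-knockout to WT ratio ran from 0.806 to 1.20. This is the gene with the match at base -29 in its promoter window. Nfkbib, which encodes IκBβ, had 21.2, 20.8, 28.0 and 26.0 CPM in WT and 24.2, 23.3, 18.9 and 16.1 CPM in Rank-knockout, with a log2 fold change of -0.20 (SE 0.20, adjusted p = 0.49). The genotypes overlapped in both genes.

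Nfkbiz encodes the inducible nuclear protein IκBζ, a co-factor for secondary NF-κB targets that is also known from epithelial IL-17 responses (GRCm38 chromosome 16, 55811375 to 55838899, minus strand, protein-coding). It was measured at 47.3, 39.8, 41.7 and 41.3 CPM in WT and at 28.7, 24.8, 24.3 and 35.1 CPM in Rank-knockout. The lowest WT library lay above the highest Rank-knockout library. The log2 fold change in edgeR was -0.58 (SE 0.18, adjusted p = 0.022), or 0.671 times the WT level. This call was lost under library totals (log2 fold change -0.38, adjusted p = 0.11), without the 50 most abundant genes in the library size (adjusted p = 0.065), with no filter on low counts (adjusted p = 0.052), and when WT replicate 1 or Rank-knockout replicate 2 or 3 was left out, with log2 fold changes of -0.55, -0.52 and -0.52 and adjusted p values of 0.053, 0.065 and 0.066.

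Bcl3 encodes a further nuclear IκB protein, one that works with p50 and p52 dimers. Its levels were 136, 90.2, 99.0 and 134 CPM in WT and 107, 134, 134 and 139 CPM in Rank-knockout, with a log2 fold change of 0.17 (SE 0.16, adjusted p = 0.47). WT libraries fell into a higher and a lower pair, 3 Rank-knockout libraries lay near the higher pair and Rank-knockout replicate 1 lay between the pairs. Cyld, which removes ubiquitin chains and thereby dampens IKK activation, was at 77.4, 80.3, 97.7 and 96.5 CPM in WT and at 84.3, 82.6, 74.2 and 89.6 CPM in Rank-knockout, with a log2 fold change of -0.08 (SE 0.14, adjusted p = 0.70). Birc3, the inducible cIAP2 ligase, was lower in level at a mean of 11.75 CPM, with a log2 fold change of -0.26 (SE 0.26, adjusted p = 0.48). Nfkbia, Bcl3 and Cyld carry a promoter match and Birc3 and Nfkbib do not. Of these 5 genes 0 passed, where 14.6% of all tested genes were lower and 15.8% higher. With so few genes the calls do not set genes with and without a match apart.

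Cxcl16 had the largest fold change of the tested members. It encodes a chemokine and scavenger receptor that epithelial and myeloid cells make and that attracts CXCR6-bearing lymphocytes (GRCm38 chromosome 11, 70453983 to 70459984, minus strand, protein-coding). The WT libraries were at 23.3, 25.3, 32.1 and 23.3 CPM and the Rank-knockout libraries at 13.2, 9.01, 13.9 and 9.23 CPM. The highest Rank-knockout library lay well below the lowest WT library. The log2 fold change in edgeR was -1.19 (SE 0.22, adjusted p = 0.0012), or 0.437 times the WT level with a 95% interval from 0.316 to 0.604. Cxcl16 passed under every alternative tried, with log2 fold changes from -1.36 with all libraries thinned to the shallowest total to -0.99 under library totals.

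**Figure D3:**
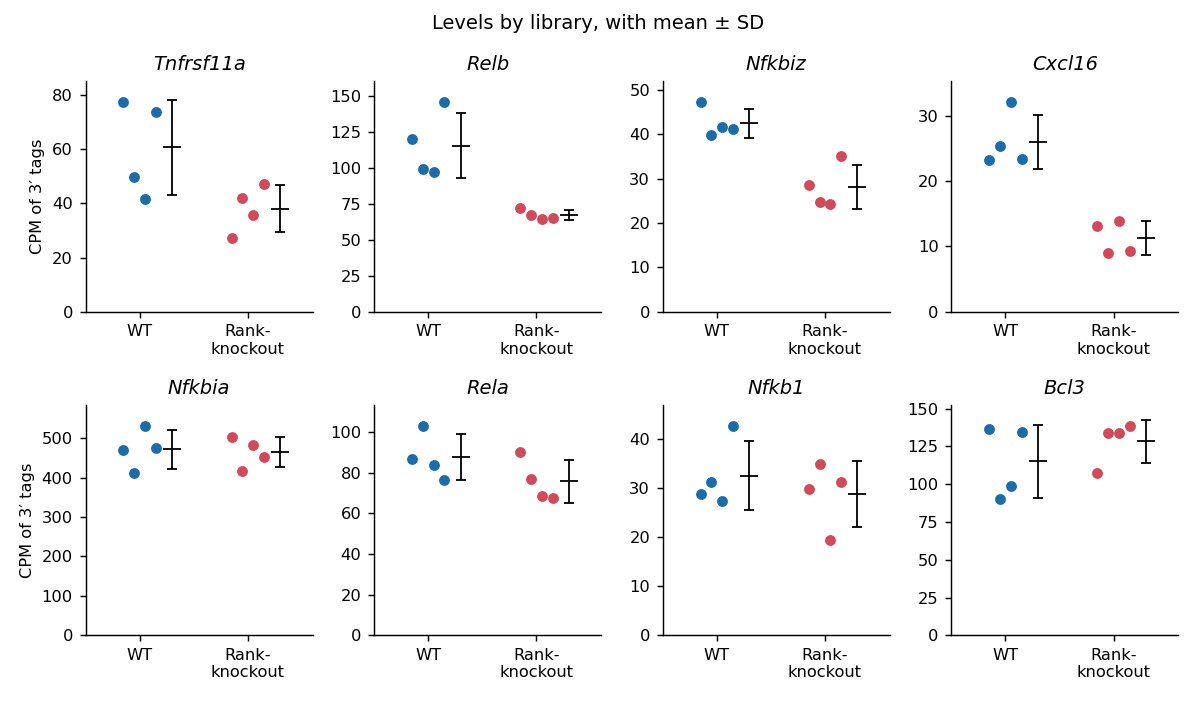
CPM of 3′ tags (y axis, from 0) in each of the 4 WT and 4 Rank-knockout libraries for the 4 members that were lower (top) and for Nfkbia, Rela, Nfkb1 and Bcl3, which did not pass (bottom); bars are mean ± SD. Relb, Nfkbiz and Cxcl16 show no overlap between genotypes, Tnfrsf11a does, and Nfkbia lies between 411 and 531 CPM in all 8 libraries.

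The remaining targets are inducible genes that were barely counted. Tnfaip3, which encodes the ubiquitin-editing brake A20, had 4, 6, 7 and 7 counts in WT and 8, 1, 3 and 9 in Rank-knockout. Ccl20, the chemokine that draws CCR6-bearing cells to the epithelium overlying lymphoid follicles, had 16, 0, 2 and 7 counts in WT and 6, 2, 4 and 12 counts in Rank-knockout, with most of the WT counts in replicate 1. Nfkbie, which encodes IκBε, had 26 counts over all 8 libraries, and Icam1, an adhesion molecule, had 12. These 4 genes, together with Traf1 and Traf5, were not tested, and with no filter on low counts 0 of the 6 passed, the lowest adjusted p being 0.29. A difference in them was not detectable at this depth.

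**Figure D4:**
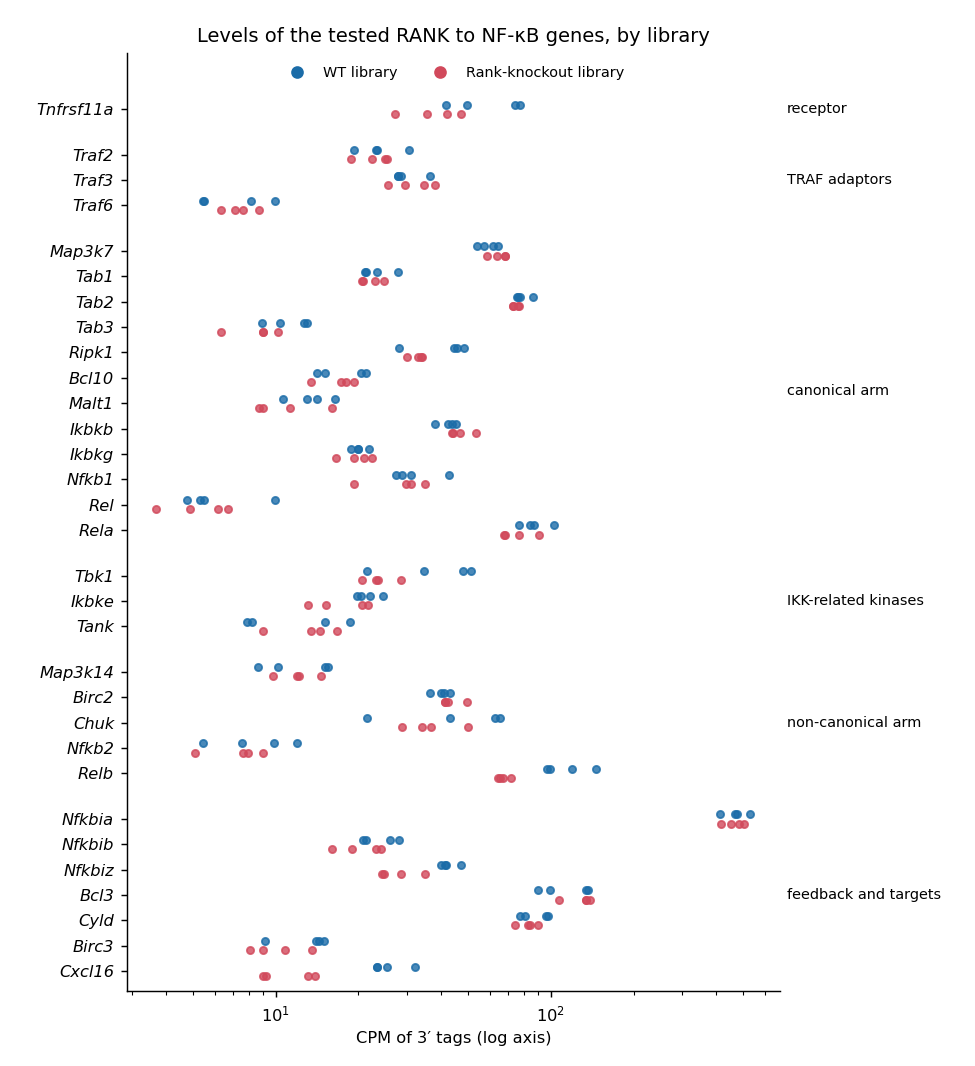
CPM of 3′ tags on a log axis (x axis) for the 31 tested members by role, with 1 point per library, WT in blue and Rank-knockout in red. Members spanned from a mean of 5.88 CPM for Rel to 468 CPM for Nfkbia, and the points of the genotypes are apart only in Relb, Nfkbiz and Cxcl16.

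Levels differed widely between members. Nfkbia was highest in both genotypes, with a mean of 472 CPM in WT against 464 CPM. Relb had a mean of 115 CPM in WT, beside 115 for Bcl3, 88.0 for Cyld, 87.7 for Rela and 78.6 for Tab2, and of 67.2 CPM in Rank-knockout, below 129 for Bcl3, 82.7 for Cyld, 75.9 for Rela and 74.7 for Tab2. Over all libraries 12 of the 31 tested members had a mean under 20 CPM. Relb tags were as frequent as or more frequent than Rela tags in most WT libraries, at ratios of 1.38, 0.963, 1.15 and 1.90, and were below Rela in all Rank-knockout libraries, at ratios of 0.796, 0.873, 0.941 and 0.965. The lowest WT ratio and the highest Rank-knockout ratio overlapped by a small margin, and the ratio, which library scaling does not change, was not tested. The Nfkbia to Rela ratio overlapped more, at 3.99 to 6.33 in WT and 5.42 to 7.07 in Rank-knockout.

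By arm, 0 of 12 canonical genes and 1 of 5 non-canonical genes, Relb, were called lower, and 0 of either were higher, where 14.6% of all tested genes were lower and 15.8% higher. With so few genes these counts do not set the arms apart, and a difference between them was not tested.

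Relb and Cxcl16 are also expressed by immune cells, so markers of such cells are set beside them. The summed level of 6 macrophage and dendritic cell markers was 5.46 to 17.8 CPM in WT and 2.64 to 12.8 CPM in Rank-knockout, with Adgre1 at 0 counts in all libraries. For 6 B and plasma cell markers it was 31.4 to 95.2 CPM in WT and 6.29 to 41.3 CPM in Rank-knockout, with Cd79a at 0, and for 8 T cell markers 183 to 280 CPM and 123 to 198 CPM. The sum of 7 stromal and endothelial markers was 1.997 to 3.43 CPM and 0.899 to 6.38 CPM, with Cdh5 at 0. The genotypes overlapped in each of these sums. Of these lists 6 T cell genes and 1 B and plasma cell gene had enough counts for the test. Of these 7 genes 0 passed, where 14.6% of all tested genes were lower and 15.8% higher. No macrophage, dendritic cell, stromal or endothelial marker had enough counts, so such cells were not covered by the test. The plasma cell gene Jchain had too few counts for it, at 3.41 to 7.86 CPM in WT and 0.450 to 2.90 CPM in Rank-knockout without overlap, and with no filter on low counts it was lower (log2 fold change -1.38, adjusted p = 0.019). Igha, the IgA heavy chain gene, had a log2 fold change of -1.49 (adjusted p = 0.066), with overlap. The part of such cells in the difference of Relb and Cxcl16 was not tested.

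A wider list of 75 genes of the pathway was measured beside the members, and 45 had enough counts. Tnfaip2, which was not tested, belongs to both the other NF-κB target genes and the M cell genes and is counted 1 time in these totals. Of these 10 (22.2%, against 14.6% of all tested genes) were lower and 5 (11.1%, against 15.8%) were higher in Rank-knockout, with a median log2 fold change of -0.09 against 0.02 for all genes. Under library totals 5 of the 10 lower genes, Tnfrsf1a, Irak4, Tnip1, Src and Mapk8, no longer passed, with adjusted p values from 0.060 (Src) to 0.28 (Tnfrsf1a), so that 5 genes (11.1%) were lower and 9 (20%) higher, against 8.72% and 26.0% of all genes on that scale. This list, like the members, was drawn up from general knowledge of the pathway with earlier results of these data known.

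Of 13 other receptors and their adaptors 9 were tested, 2 were lower and 2 were higher, against 14.6% and 15.8% of all tested genes. Tnfrsf1a, the main TNF receptor, had a log2 fold change of -0.41 (SE 0.14, adjusted p = 0.042), with a mean of 192 ± 27.6 CPM in WT against 144 ± 15.2 CPM (SD, n = 4 each). Irak4, a kinase of the IL-1 and Toll-like receptor pathway, had -0.51 (SE 0.16, adjusted p = 0.028), while its partner Irak1 had 0.53 (SE 0.18, adjusted p = 0.038) and Traf4, a TRAF protein of epithelia, had 0.71 (SE 0.20, adjusted p = 0.013). Under library totals 0 of the 9 were lower, against 8.72% of all genes, and Irak1 and Traf4 were higher, against 26.0%. The lymphotoxin receptor Ltbr, a strong activator of the non-canonical arm, was the most abundant of these receptors at 750 and 676 CPM on average and did not pass (log2 fold change -0.15, adjusted p = 0.43).

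Of 9 genes of ubiquitin conjugation and removal 7 were tested and 1, Tnip1, a ubiquitin-binding partner of A20, was lower (log2 fold change -0.47, SE 0.15, adjusted p = 0.023), a share of 14.3% against 14.6% of all tested genes. Under library totals 0 were lower and 1, Ube2n, was higher, against 8.72% and 26.0% of all genes. The linear ubiquitin ligase subunits Rnf31, Rbck1 and Sharpin did not pass, with log2 fold changes of -0.43, -0.14 and 0.01. Of 9 NF-κB brakes and co-factors 7 were tested and 0 passed in edgeR, against 14.6% lower and 15.8% higher among all tested genes. In this role Commd1, which promotes removal of RELA from chromatin, came nearest, with a log2 fold change of 0.65 (adjusted p = 0.064). Under library totals 2 of the 7, Commd1 and Csnk2b, were higher, against 26.0% of all genes.

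RANK also signals outside NF-κB, through MAP kinases and AP-1 and through Src, Gab2, Akt1 and Nfatc1. Of 14 genes on these branches 12 were tested, with 5 lower and 1 higher, against 14.6% lower and 15.8% higher of all tested genes. Under library totals 3 were lower and 1 was higher, against 8.72% and 26.0% of all genes on that scale. Fos and Jun, which form AP-1, had log2 fold changes of -1.53 (SE 0.26, adjusted p = 9.5e-04) and -0.95 (SE 0.17, adjusted p = 0.0011), and Fosl2 had -0.87 (SE 0.16, adjusted p = 0.0012). Mean levels were 115 and 39.3 CPM for Fos, 181 and 93.5 CPM for Jun and 339 and 185 CPM for Fosl2 in WT and Rank-knockout, without overlap between the genotypes in any of the 3. The kinases Src and Mapk8 were lower too, by -0.56 and -0.58 on the log2 scale, with adjusted p values of 0.0089 and 0.016. Akt1, a survival kinase, was higher (log2 fold change 0.67, adjusted p = 0.016), and the transcription factor Nfatc1, the master regulator of osteoclasts downstream of RANK, had 76 counts in all and was not tested.

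Of 21 other NF-κB target genes only 6 had enough counts, and 5 of the 21 had 0 counts in all libraries. Of the 6 tested, 2 were lower and 0 were higher, against 14.6% and 15.8% of all tested genes. Bcl2l1, which encodes the anti-apoptotic BCL-XL, was lower (log2 fold change -0.71, SE 0.14, adjusted p = 0.0018), as was Pigr, the receptor that carries IgA across the epithelium (log2 fold change -0.61, SE 0.16, adjusted p = 0.0085; 4042 and 2653 CPM on average). Cytokine and chemokine targets such as Tnf, Il6, Il1b, Cxcl1 and Ccl2 had between 0 and 17 counts over the 8 libraries.

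Of 8 M cell genes that RANK is known to induce 4 were tested, 0 were lower and 2 were higher in Rank-knockout, against 15.8% of all tested genes, and 3 were higher under library totals, against 26.0%. Ccl9 had a log2 fold change of 1.52 (SE 0.35, adjusted p = 0.0048) and Pglyrp1 had 1.40 (SE 0.26, adjusted p = 0.0013), the latter also being made by other epithelial and immune cells. The M cell factor Spib did not pass (log2 fold change 0.71, adjusted p = 0.11). Gp2 and Sox8, the genes most particular to mature M cells and their maturation, had 0 counts in all 8 libraries. The paper reports that M cells of Peyer's patches were absent in its knockout females. Which cells made the Ccl9 and Pglyrp1 tags was not tested.

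**Figure D5:**
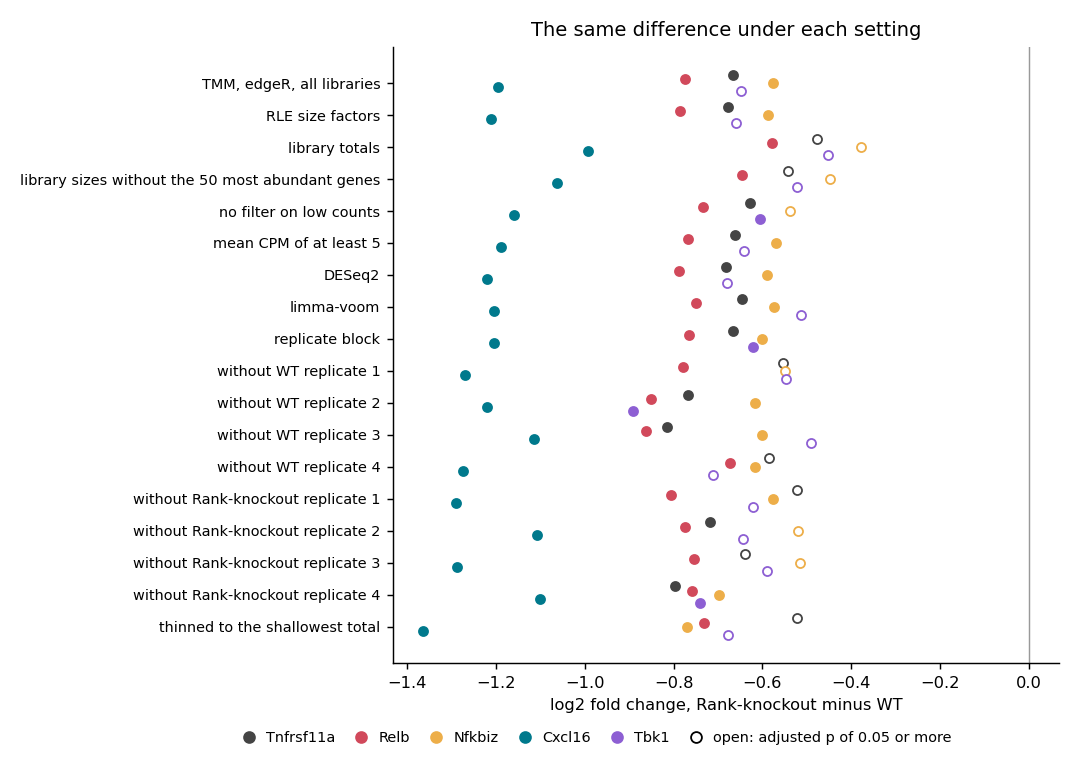
Log2 fold change of Rank-knockout minus WT (x axis) for the 4 lower members and Tbk1 under each of the 18 settings (y axis), filled where the adjusted p is under 0.05 and open where it is not. Relb and Cxcl16 are filled throughout, Tnfrsf11a is open in 7 and Nfkbiz in 6, and Tbk1 is filled in 4.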

How the data were processed

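Lexogen QuantSeq 3′ mRNA-seq libraries (FWD kit, single reads) of intestinal epithelial cells were analysed, 1 per animal. The authors trimmed reads with BBDuk, removed abundant sequences with bowtie2, aligned to GRCm38 with STAR and counted sense-strand reads per gene with featureCounts. The deposited table gives these counts without normalization. No molecular identifiers are described, so PCR copies cannot be told from separate transcripts. Symbols and positions came from GENCODE M21 (GRCm38), and promoter windows from RefSeq.

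All 9855 genes that passed filterByExpr were fitted with edgeR 4.0.16 in R 4.3.3 (TMM, robust quasi-likelihood F-test, genotype as the only term). The fitting code was separately checked on simulated counts, which enter no value given here. P values were adjusted by Benjamini-Hochberg over all 9855 genes and called under 0.05. Log2 fold changes are Rank-knockout minus WT, SEs come from the F statistic, and 95% intervals use the t distribution of the fit. Alternatives used limma 3.58.1, DESeq2 1.42.0 and other scalings and filters. WT and Rank-knockout follow the sample labels.

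The members, lists and tests were chosen with earlier results of these data known. Full values are given for Tnfrsf11a, for members past the threshold, and for members of the canonical, non-canonical and feedback roles with a mean of at least 20 CPM. Of the other pathway genes, those past the threshold with up to the 4 smallest p values per role are named, and Tnfsf11 and Tnfrsf11b always. Further genes were named for their roles after their values were seen.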

Additional observations from a re-analysis of the deposited data

Results flagged for a closer look

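Each set of 4 libraries of a genotype was searched for a highest or lowest library set apart from the others by a gap above Dixon's 95% critical value, over the levels of the 31 tested members, the summed markers and the totals. Of 78 such sets 7 stood out, where chance gives about 1 in 20, or 3.9. Traf3 was 36.3 CPM in WT replicate 1 against 27.9 to 28.7 CPM in the other WT libraries. Rel was 9.98 CPM in WT replicate 4 against 4.78 to 5.48 CPM. Birc2 was 49.5 CPM in Rank-knockout replicate 2 against 41.4 to 42.3 CPM in the others of its genotype, and Bcl3 was 107 CPM in Rank-knockout replicate 1 against 134 to 139 CPM. None of these 4 members passed the genotype test in edgeR, where 14.6% of all tested genes were lower and 15.8% higher. The summed macrophage and dendritic cell markers stood at 17.8 CPM in WT replicate 1 against 5.46 to 6.66 CPM, the library that also held most of the WT counts of Ccl20, and the summed stromal and endothelial markers at 1.997 CPM in WT replicate 4 against 3.29 to 3.43 CPM. The total of WT replicate 2 was 4335653 counts against 1530781 to 1616024 in the other WT libraries. Without that library Tnfrsf11a, Tbk1, Chuk, Relb, Nfkbiz and Cxcl16 were lower, which is 6 members against 4, while 15.8% of all genes tested in that fit were lower, against 14.6% with all libraries.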

How the results depend on the processing

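Relb and Cxcl16 were lower in all 17 alternatives, and 0 members were higher in any of them. The share of all genes called higher ran from 8.54% to 26.0% over these alternatives. The count of lower members was 2 under library totals, 2 when the 50 most abundant genes were left out of the library sizes, and from 2 to 6 when a library was left out, with 2 without Rank-knockout replicate 3. Of all genes tested, 8.72%, 10.3% and 10.9% were lower in the first 2 of these fits and without Rank-knockout replicate 3. With the replicate block the count was 5, with 16.3% of all genes lower, Tbk1 being added at an adjusted p of 0.046. Deviations of same-numbered libraries correlated at 0.05, 0.15, -0.14 and 0.32, so the numbers were not taken to pair the animals. Of 526 values of single members, 467 kept their direction and side of the threshold, 13 lost the call, 6 gained it and 40 turned sign, with 0 of these 40 past the threshold on either side.

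The values that turned were close to 0. Under library totals the log2 fold change was 0.16 for Traf2, 0.10 for Tab1, 0.13 for Tab2, 0.16 for Bcl10, 0.18 for Ikbkg, 0.037 for Nfkb1, 0.14 for Map3k14, 0.18 for Nfkbia, 0.0014 for Nfkbib and 0.12 for Cyld. When the 50 most abundant genes were left out of the library sizes it was 0.087 for Traf2, 0.028 for Tab1, 0.059 for Tab2, 0.089 for Bcl10, 0.11 for Ikbkg, 0.073 for Map3k14, 0.11 for Nfkbia and 0.046 for Cyld. Both scalings move all genes up, by 0.20 and 0.13 at the median. Thinned to the shallowest total it was 0.033 for Traf2, -0.012 for Ikbkb and 0.019 for Map3k14, and with no filter on low counts 0.020 for Ikbkg and 0.017 for Nfkbia. With a library left out it ran from -0.16 to 0.060 for Traf2, -0.0071 to 0.18 for Traf3, -0.11 to 0.13 for Traf6, -0.18 to 0.0054 for Tab1, -0.17 to 0.063 for Bcl10, -0.085 to 0.075 for Ikbkg, -0.042 to 0.42 for Tank, -0.22 to 0.10 for Map3k14 and -0.092 to 0.026 for Nfkbia. The cause of the other changes was not tested. The 3 shallow WT libraries limit the precision of members with few counts.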
